A study of Drosophila melanogaster with 4 samples.

Results

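The genes described here are the noncoding RNA and pseudogene loci that carry a CR symbol, the prefix FlyBase gives to Drosophila genes without a protein product. They were chosen by name from the authors' tables of genes that differed between snf148 and wild-type ovaries: a symbol of CR and digits, or a start of sno, snRNA, tRNA or mir-, and a locus off chromosome 4. The rule found 13 of the 1283 listed genes, every one of them by its CR symbol. The tables hold 0 rows starting with sno, snRNA, tRNA or mir-, and the chromosome 4 condition removed 0 rows. A gene outside the tables was not analysed here, and its absence says nothing about its level.

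Ovarian RNA of Drosophila melanogaster was sequenced in 2 genotypes with 2 libraries each. Mutant females were y w snf148 v and 3 days old as adults, and wild-type females were y w virgins of 0 to 24 hours. Both groups share y and w, and the mutant chromosome carries v besides the snf allele, so allele, marker, age and possibly mating status differ together and cannot be told apart. The snf gene encodes an RNA-binding component of the spliceosomal U1 and U2 snRNPs. Total RNA was treated with DNase, made into stranded libraries and read as paired ends of 100 bases, per the labels' protocols. In bulk ovaries, a change in RNA per cell cannot be told apart from a change in the share of the cells that hold it. Of the 12 ovary marker genes looked up, 9 were listed, 4 higher and 5 lower in snf148. The higher ones were Yp1, Yp2 and Yp3, which encode yolk proteins, and the vitelline membrane gene Vm26Aa, and the lower ones the oocyte genes osk, orb and grk and the chorion genes Cp15 and Cp18.

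Long noncoding RNAs are transcribed by RNA polymerase II, and many are capped, spliced and polyadenylated like messenger RNAs. They include precursors from which microRNAs are cut, antisense transcripts that run across a protein gene on the other strand, and transcripts that arise inside an intron of a host gene. Pseudogenes of ribosomal RNA are broken copies of the ribosomal genes, whose sequence they largely share. In the fly ovary, germ cells, follicle cells and sheath cells each contribute such transcripts.

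Release 6 of the reference annotation held 12 of the 13 CR genes. It types 10 as long noncoding RNA, 1 as antisense RNA (CR44155) and 1 as a pseudogene of ribosomal RNA (CR41609). Among the matched genes, the pseudogene part thus rests on 1 gene. CR40560 was not matched, so its type is not known here.

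Of the 13 CR genes, 11 were higher in snf148 and 2 were lower. Over all 1283 listed genes, 51.8% were higher in snf148 and 48.2% lower. The higher CR genes ranged from CR43835 and CR44058, listed at 0 in wild type, through CR42767 at 38.9-fold, to CR34335 and CR41609 at 1.65-fold and 1.63-fold. The lower ones were CR40469, at 14.97 FPKM in snf148 against 34744 FPKM in wild type, and CR44155 at 23.6 against 49.5 FPKM. FPKM is a fragment count divided by gene length and by the number of fragments mapped in the library. Each value is the authors' mean of a genotype, so no SD can be given, the spread between libraries is not known, and the depth is unknown. Pairs of values below are mean FPKM with snf148 first.

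The median log2 ratio of snf148 over wild type was 1.78 over the 11 higher CR genes and 2.37 over all 665 higher genes, with genes at 0 in wild type ranked beyond all finite ratios. Over the 9 higher CR genes above 0 in both genotypes it was 1.29. At least 4-fold differences were reached by 5 of the 11, among which the genes at 0 are counted, against 58.2% of all higher genes. The adjusted P values of the CR genes in the authors' deposited table ran up to 0.0336, where the whole table reaches 0.0497. At an adjusted P of at most 0.01 were 9 of the 13, against 60.1% of all listed genes. The smallest value in the authors' deposited table, 0.00126, was shared by 6 of the 13 CR genes and by 36.3% of all listed genes. These counts describe genes that had already passed the authors' threshold.

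**Figure D1:**
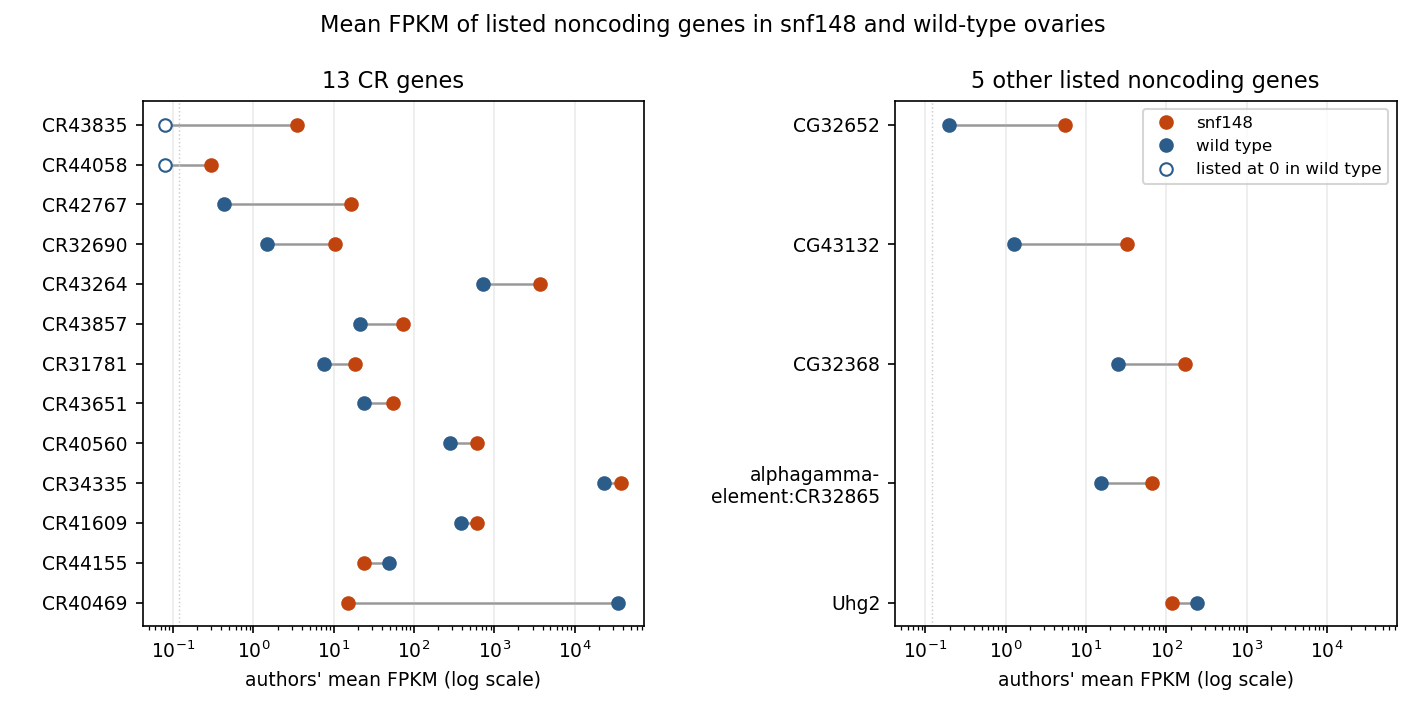
Authors' mean FPKM on a log scale for the 13 CR genes (left) and for 5 listed genes outside the naming rule that the reference types as noncoding (right), with a line joining the values of snf148 (orange) and wild type (blue) of each gene. Open points left of the dotted line stand for a listed value of 0, and the long line at the bottom left is CR40469, at 14.97 against 34744 FPKM.

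The CR genes spanned from 0.295 to 38207 FPKM in the genotype with the higher value, with a median of 54.7 FPKM against 32.4 FPKM over all listed genes. The most abundant stood at the top of the tables. In wild type CR40469 ranked 1 and CR34335 ranked 2 of the 1283 listed genes by FPKM, and in snf148 CR34335 ranked 1 and CR43264 ranked 2. Outside the CR genes the highest mean in either genotype was 2735 FPKM, for awd, which encodes nucleoside diphosphate kinase. The 13 CR genes made up 38% of the summed FPKM of all listed genes in snf148 and 40.8% in wild type. CR34335 and CR40469 gave 88.1% of the CR sum in snf148 and 97.5% in wild type. The CR sum was 43402 FPKM in snf148 against 59356 in wild type; without CR40469 it was 43387 against 24612, the opposite order.

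**Figure D2:**
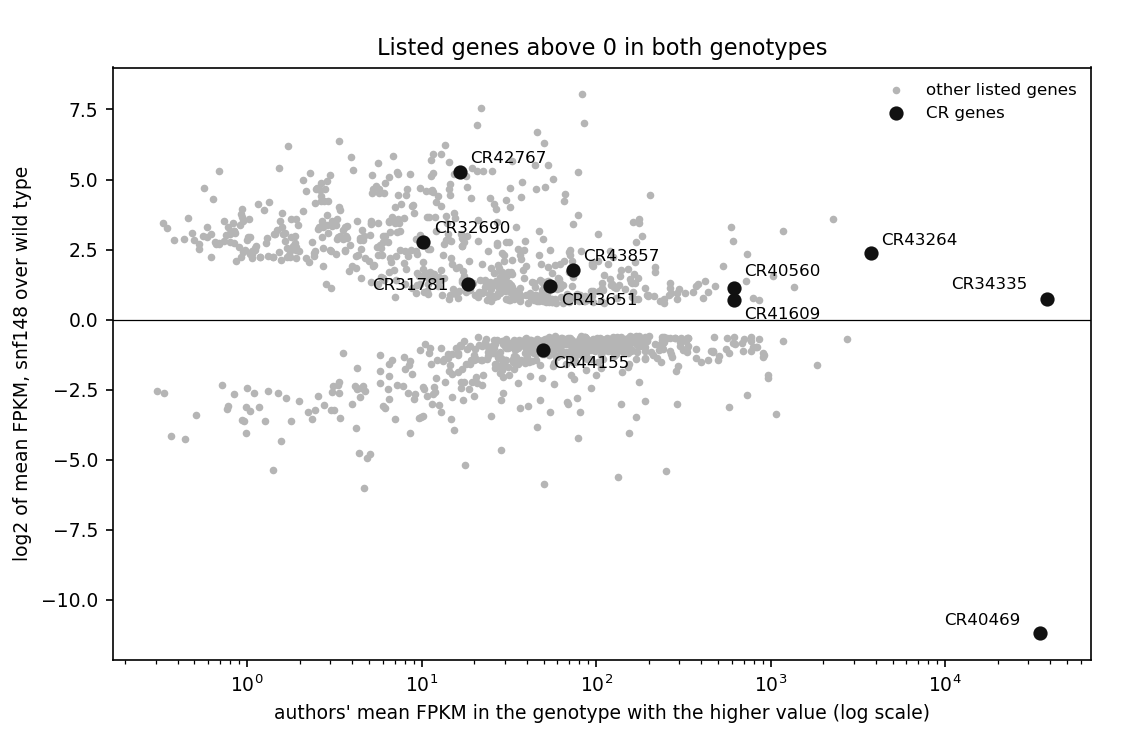
Log2 of the mean FPKM in snf148 over that in wild type, against the higher of both means on a log scale, for listed genes above 0 in both genotypes, with CR genes as large black points. CR40469 lies below all other points at -11.18, and CR34335 and CR40469 lie to the right of all others.

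CR40469 had the largest difference of any listed gene with a finite ratio. Its log2 ratio was -11.18. Outside the CR genes the lowest finite ratio was -6.00, and the largest absolute value in either direction was 8.03. Its adjusted P was 0.00126 in the authors' deposited table. The locus runs from 18880 to 19093 on X, in coordinates of the tables' unnamed build, and so lies near the tip of that chromosome. In release 6 it is a single exon of 214 bp that directly adjoins a copy of HeT-A, a retrotransposon of fly telomeres. A 74 bp HeT-A fragment lies 33 bp from the exon, and both copies are on its strand. The annotated HeT-A copies adjoin the exon of CR40469 and do not overlap it. How fragments that match several places were counted is not given in the sources used here, and whether such fragments enter the value of CR40469 was not tested. It lies on the chromosome that carries snf148 and v, and for this and the other X-linked CR genes a difference between the X chromosomes of the stocks cannot be told apart from an effect of the allele.

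CR34335 and CR43264, both higher in snf148, lie within introns of protein genes. CR34335 stood at 38207 against 23125 FPKM, a log2 ratio of 0.72 with an adjusted P of 0.0336 in the authors' deposited table. Its reference gene is 361 bp long and lies on the same strand inside an intron of DIP-alpha, which encodes an immunoglobulin-domain cell surface protein of neurons. The deposited locus is far wider, 66378 bp from 3401278 to 3467655 on X, close to the 64405 bp of DIP-alpha in release 6. CR43264 stood at 3748 against 719 FPKM, a 5.21-fold difference with an adjusted P of 0.00126 in the authors' deposited table. Its reference gene is a single exon of 318 bp, on the strand opposite to its host CG15765. The deposited locus of CR43264, from 5712592 to 5734856 on X, spans 22265 bp, exactly the span of CG15765. Neither host gene is listed under its own name. How fragments were divided between these RNAs and their hosts is not given in the sources used here.

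Both intronic genes and CR40469 were the shortest of the 12 matched CR genes and, in their higher genotype, the most abundant. These 3 had exons of less than 400 bp in the reference, and each reached at least 3748 FPKM in one genotype. The other 9 with a reference length reached at most 618 FPKM. For exons not much longer than the read pairs, FPKM depends on how length is corrected. That setting is not given in the sources used here, and its part in these levels was not tested.

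**Figure D3:**
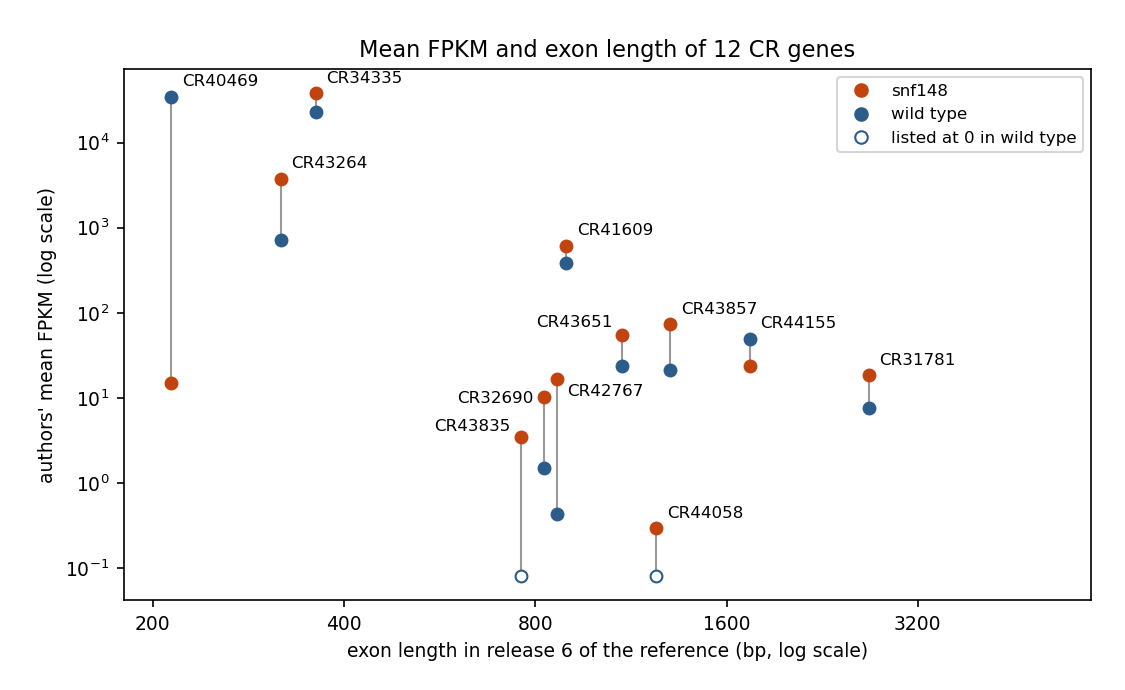
Authors' mean FPKM in snf148 (orange) and wild type (blue) against exon length in release 6 of the reference for the 12 matched CR genes, both axes on log scales, with open points at the bottom for a listed value of 0. The 3 genes under 400 bp hold the highest points, and CR40469, the shortest at 214 bp, has the longest line.

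Among the remaining higher genes were both that hold or adjoin microRNA genes. CR43651, for which RefSeq gives the synonym pri-mir-14, stood at 54.7 against 23.9 FPKM, a 2.29-fold difference with an adjusted P of 0.0221 in the authors' deposited table. The microRNA of mir-14 is known in flies for restraining cell death and fat storage. The mir-14 hairpin lies within 1 reference exon of CR43651 on the same strand. CR43857 stood at 73.6 against 21.4 FPKM, a 3.44-fold difference with an adjusted P of 0.00126 in the authors' deposited table. Its reference exon overlaps the hairpin of mir-275, and mir-305 lies 40 bp from the gene on the same strand. Its deposited locus, from 7423820 to 7425932 on 2L, has the same 2113 bp as the reference gene. Fragments of a primary transcript do not measure the mature microRNA, which is too short for such libraries, so levels of these microRNAs were not analysed here.

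The genes near silence in wild type were CR43835, CR44058 and CR42767, all below 1 FPKM there. CR43835 stood at 3.46 FPKM in snf148 and was listed at 0 in wild type, with an adjusted P of 0.00126 in the authors' deposited table. It is a spliced gene of 4 exons, at 7394476 to 7395416 on X. CR44058 was listed at 0 in wild type too, and at only 0.295 FPKM in snf148, the lowest of the CR genes in its higher genotype. Among all higher genes, 5.86% were listed at 0 in wild type. CR42767, with 2 exons at 9451655 to 9452418 on X, stood at 16.6 against 0.428 FPKM. Its log2 ratio of 5.28 was the largest finite one among the higher CR genes, with an adjusted P of 0.00126 in the authors' deposited table.

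CR32690 and CR31781 were low but detected in both genotypes. CR32690 stood at 10.3 against 1.49 FPKM, a 6.88-fold difference with an adjusted P of 0.00391 in the authors' deposited table. In the reference it has 2 exons and lies inside the span of an antisense RNA, CR44894, on the opposite strand, 3 bp from Ypel. CR31781 stood at 18.6 against 7.60 FPKM, a 2.44-fold difference with an adjusted P of 0.00613 in the authors' deposited table. It has 6 transcripts in the reference and the greatest exon length of the matched CR genes, 2679 bp. Neither gene's function is known to the annotation used here.

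CR41609 and CR40560 were the CR genes on unplaced sequence. CR41609, a pseudogene of the 28S ribosomal RNA, stood at 618 against 380 FPKM, a log2 ratio of 0.70 with an adjusted P of 0.0264 in the authors' deposited table. Its deposited locus spans 7137400 bp of unplaced sequence, against 895 bp for the gene in the reference. The identical locus is also given for His1:CG33834, a copy of the linker histone gene, which stood at 36.1 against 103 FPKM, in the opposite direction. CR40560 stood at 613 against 284 FPKM, a 2.16-fold difference with an adjusted P of 0.00126 in the authors' deposited table. Whether fragments from other copies of ribosomal sequence enter the value of CR41609 was not tested.

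CR44155, the antisense gene and the other lower one, shares its locus with rpk. The gene rpk encodes a DEG/ENaC sodium channel subunit of ovaries and early embryos. CR44155 stood at 23.6 against 49.5 FPKM, a log2 ratio of -1.07 with an adjusted P of 0.0116 in the authors' deposited table. Its partner rpk stood at 12.7 against 25.9 FPKM, a log2 ratio of -1.03 with an adjusted P of 0.0408 in the authors' deposited table. Both are given the same locus, from 471703 to 474606 on 3R, whose 2904 bp equal the reference span of rpk, and their exons overlap on opposite strands. The libraries were stranded, but whether strand was used in counting is not given in the sources used here, so the levels of both genes may share reads.

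By position, 6 of the 13 CR genes lay on X, or 46.2%, against 18.0% of all listed genes. Of these, 5 were higher in snf148 and 1, CR40469, was lower. There were 3 CR genes on 2L, 1 each on 2R and 3R, none on 3L, and 2 on unplaced sequence.

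In the tables' own build, 8 of the 13 CR genes had no other listed gene within 10 kb, near the 57.1% of all listed genes that had none. The other 5 had 6 listed neighbours, of which 3 went the same way as the CR gene and 3 the opposite way. Distances were taken between deposited loci, some of which are far wider than the reference gene. In 2 of the 6 pairs, CR41609 with His1:CG33834 and CR44155 with rpk, both genes are given the identical locus, so these pairs do not measure proximity. CR42767 had a pair of higher neighbours. One was CG32702, now named Cubn, the cubilin gene of protein uptake in nephrocytes, at 7.07 against 3.99 FPKM and 279 bp away. The other was CG32700, at 1.00 against 0.138 FPKM. CR43264 was higher while CG15766, now named AgmNAT, stood at 3.41 against 18.7 FPKM. AgmNAT lies 2738 bp from the deposited locus of CR43264, which has the span of the host CG15765. Its distance from the 318 bp exon of CR43264 is not known here. CR43651 was higher while CG1888, 4714 bp away, stood at 27.9 against 49.9 FPKM.

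The symbol rule did not take in every listed noncoding gene. The reference types 5 further listed genes as long noncoding RNA, and 4 of them were higher in snf148. CG43132, now lncRNA:CR43132, stood at 32.2 against 1.26 FPKM, and CG32652, now lncRNA:CR32652, at 5.47 against 0.198 FPKM; both are X-linked. CG32368, now lncRNA:CR32368, stood at 170 against 25.1 FPKM. The alphagamma-element RNA, CR32865, a transcript of a heat shock puff, stood at 65.9 against 15.4 FPKM. Uhg2, a host gene whose introns carry small nucleolar RNAs, was the lower one at 117 against 240 FPKM. With these, 15 listed genes of a CR symbol or a noncoding type were higher and 3 lower. The higher ones include CR40560 by its symbol only. Over all listed genes, 51.8% were higher.

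Genes that make or remove noncoding RNA were looked up in the tables, which hold 9.05% of the protein-coding genes of the reference. The lists below count symbols, and some hold more than 1 symbol of the same gene. Of 19 symbols of the RNA exosome and related decay, 1 was listed, the helicase gene l(2)35Df. It is the fly MTR4 that feeds RNA to the nuclear exosome. Its means were 38.2 against 66.4 FPKM, with an adjusted P of 0.00391 in the authors' deposited table. Of 7 symbols of nonsense-mediated decay, 1 was listed, Smg5, at 36.01 against 18.8 FPKM, with an adjusted P of 0.00126 in the authors' deposited table. None of 16 symbols of the Integrator complex, which cuts the ends of small nuclear RNAs, was listed. Nor was any of 13 symbols of spliceosomal snRNP proteins and U2AF splicing factors, snf included. Of 21 symbols of other named noncoding RNAs, Uhg2 was the 1 listed.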

How the data were processed

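Reads were processed with TopHat2 2.0.9 and an unstated version of Cuffdiff, per the submitters' processing notes; build, gene models and the handling of strand or multiply mapped reads were not stated in the sources used here. Per the file headers, the deposited tables give the authors' mean FPKM of each genotype, a log2 fold change (wild type over mutant), and the P value of their comparison before and after adjustment. No value per library was used, so the planned count or limma fit was not run and no test was made beyond the authors' own. Log2 ratios of snf148 over wild type were recomputed from the mean FPKM with Python 3.11.15 and pandas 2.3.3. For all 11 CR genes above 0 in both genotypes they were within 0.001 of the authors' log2 values. Direction was taken from the FPKM columns, since the table titled as downregulated holds genes higher in snf148. Counting code was tested on simulated data.

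Starts were moved to count from 1. Release 6 annotation (RefSeq, and Ensembl 115 for exons and strand) matched 1280 of 1283 symbols and was used for names, types, lengths and neighbours, not for coordinates of the tables. No sequence was printed. Every CR gene was described. The genes and lists were chosen with earlier results of these data known.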

Additional observations from a re-analysis of the deposited data

How the results depend on the processing

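No paired analysis was possible because the tables hold means of each genotype and no value per library; leaving out libraries could not be run either. Of 34 alternative values of the counts and medians, 25 stayed within 1.5 times and 9 moved. Medians were compared as ratios before the log. The sign of each median was fixed by the split into higher and lower genes. With the adjusted P held to 0.01, 8 higher CR genes and 1 lower one were left, with median log2 ratios of 2.58 and -11.18. At least 4-fold left 5 and 1. Leaving out genes that overlap another listed gene left 1 lower gene, CR40469, at -11.18. The main median of the lower genes, -6.13, lies midway between only 2 genes. The median of the higher genes was 1.19 with a pseudocount of 1 FPKM, where that of all higher genes was 1.30, and 2.38 without unplaced sequence, an alternative chosen after seeing the data, as was counting all listed noncoding genes. A filter lowers counts, and a pseudocount shrinks ratios of weak genes, by construction. Where genes were left out, the shift of a median depends on which genes those were. They were CR41609 and CR40560 for unplaced sequence, and CR44155 for the overlap among lower genes. Of 22 single-gene log2 ratios with a pseudocount, 20 stayed near; with 1 FPKM, CR42767 moved to 3.63 and CR32690 to 2.18.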
